A study of Drosophila melanogaster with 2 samples.

Results

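The Hippo pathway genes were examined as binding locations of CG7786, a predicted basic leucine zipper transcription factor, in Drosophila melanogaster embryos. The members were 10 genes found by symbol in the annotation, hpo, sav, wts, mats, yki, sd, ex, Mer, kibra and ft, of 13945 protein-coding genes on the chromosome arms used. Each gene was given a span, its body plus 2000 bp upstream. Of the 4045 peaks in the authors' reproducible list on genome build dm6, 14 had their summit in one of these spans. The libraries came from whole embryos of both sexes, collected 0 to 24 hours after laying, of a transgenic line (strain CG7786-GFP) that stably carries CG7786 joined at its C terminus to eGFP. They were chromatin immunoprecipitation libraries, 1 group of 2 (biological replicates 2 and 3). Both libraries carry the fusion, and no second condition, stage or genotype was available for comparison. The labels name an antibody to GFP in one field and CG7786 in another, and all tissues and stages of embryogenesis are mixed in each library. No value here can therefore be tied to a tissue or stage. Read depth is unknown, and with 1 group there is no test between conditions, so the counts below are descriptions set beside the same counts over all protein-coding genes.

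The Hippo pathway restrains growth by keeping a transcriptional co-activator out of the nucleus. The kinase Hippo (hpo), with its scaffold Salvador (sav), activates the kinase Warts (wts) and its activator Mats (mats). Warts phosphorylates Yorkie (yki), which otherwise enters the nucleus and works through the DNA-binding TEAD protein Scalloped (sd). Expanded (ex), Merlin (Mer) and Kibra (kibra) are scaffold proteins beneath the cell membrane that activate the kinases, and Fat (ft) is a giant cadherin that acts as an upstream receptor. In flies several of these upstream genes, ex and kibra among them, are also targets of Yorkie.

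The sequences under 7 of the 14 summits are shown because they carry 3 of the promoter peaks, the strongest distal peak and some of the motif matches described later. Each is given 5' to 3' on the strand of its gene, read from the Release 6 genome at the dm6 coordinates, over 200 bp around the summit. That at Mer covers only the part of the window inside the intron, since the rest lies in or beyond a 5' UTR. Capitals in the first mark the DRE motif TATCGATA, which occurs there at 2 places. Capitals in the wts sequence mark TGAGTCA, the reverse complement of the AP-1 motif TGACTCA. In the last 2 they mark a word of 12 bases that both windows hold, on opposite strands. The others hold none of the 7 motifs searched and are shown in lower case throughout.
kibra promoter, chr3R:14724271-14724470, minus strand: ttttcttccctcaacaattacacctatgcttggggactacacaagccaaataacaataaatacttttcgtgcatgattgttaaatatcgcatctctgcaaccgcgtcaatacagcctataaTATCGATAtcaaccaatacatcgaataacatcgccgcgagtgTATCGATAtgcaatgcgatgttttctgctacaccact
Mer intron, chrX:19693288-19693435, minus strand: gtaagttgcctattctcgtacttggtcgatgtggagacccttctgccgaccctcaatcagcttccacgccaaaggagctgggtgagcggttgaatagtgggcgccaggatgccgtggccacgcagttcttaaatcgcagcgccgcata
mats intron, chr3R:22421717-22421916, plus strand: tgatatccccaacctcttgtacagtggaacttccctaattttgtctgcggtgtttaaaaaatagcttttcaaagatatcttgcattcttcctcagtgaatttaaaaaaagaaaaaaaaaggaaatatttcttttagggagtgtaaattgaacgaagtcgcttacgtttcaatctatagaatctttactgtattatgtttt
ex intron, chr2L:442025-442224, plus strand: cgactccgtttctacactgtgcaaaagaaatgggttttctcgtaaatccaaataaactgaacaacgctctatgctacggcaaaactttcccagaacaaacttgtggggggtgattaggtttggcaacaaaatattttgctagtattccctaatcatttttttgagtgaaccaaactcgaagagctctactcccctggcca
wts intron, chr3R:30805330-30805529, minus strand: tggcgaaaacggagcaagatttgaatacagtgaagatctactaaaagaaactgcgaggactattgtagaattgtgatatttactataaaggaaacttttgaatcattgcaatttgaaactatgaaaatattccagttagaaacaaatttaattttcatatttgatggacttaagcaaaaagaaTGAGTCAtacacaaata
sd intron, chrX:15818736-15818935, plus strand: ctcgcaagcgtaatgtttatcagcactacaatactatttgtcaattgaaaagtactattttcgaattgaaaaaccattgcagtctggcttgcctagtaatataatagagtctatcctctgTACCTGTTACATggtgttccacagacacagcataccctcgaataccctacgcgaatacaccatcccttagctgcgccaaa
kibra distant intron, chr3R:14707009-14707208, minus strand: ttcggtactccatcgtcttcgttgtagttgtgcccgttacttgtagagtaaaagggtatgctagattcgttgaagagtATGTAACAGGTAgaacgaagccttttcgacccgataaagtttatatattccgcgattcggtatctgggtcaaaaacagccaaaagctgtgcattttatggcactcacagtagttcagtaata

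The genes lie on the arms 2L, 2R and 3R and the X chromosome of dm6, as the Ensembl annotation places them. Of the kinase cassette, hpo (FBgn0261456) at chr2R:19493996-19496856 on the minus strand is listed with sav (FBgn0053193) at chr3R:23058609-23061304 on the minus strand, wts (FBgn0011739) at chr3R:30789625-30806619 on the minus strand and mats (FBgn0038965) at chr3R:22421161-22423302 on the plus strand. The effectors were yki (FBgn0034970) at chr2R:24065975-24068485 on the minus strand and sd (FBgn0003345) at chrX:15804370-15827682 on the plus strand. The scaffold genes were ex (FBgn0004583) at chr2L:431227-448701 on the plus strand, Mer (FBgn0086384) at chrX:19689697-19693500 on the minus strand and kibra (FBgn0262127) at chr3R:14697689-14724261 on the minus strand, and the cadherin gene was ft (FBgn0001075) at chr2L:4198404-4221796 on the minus strand. Spans ran from 4142 bp at mats to 28573 bp at kibra, and all but mats (2 start sites) and sd (7) have 1 annotated start site.

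Peaks lay in the spans of 8 of the 10 genes, all but sav and ft. They were spread unevenly: wts had 4 summits, kibra 3, ex 2, and hpo, mats, yki, sd and Mer 1 each. Over all protein-coding genes 27.7% had a summit in their span. Longer spans have more room for a summit, so the shares were also taken among genes of like length. Among spans of up to 10000 bp, 23.6% held a summit, and of the 5 members of this length (hpo, sav, mats, yki and Mer) 4 did. Among spans of 10000 to 20000 bp the share was 44.4%, and both members of this length, wts and ex, had a summit. Among spans of 20000 to 30000 bp it was 50.6%, and sd and kibra had one where ft did not. The member spans together held 0.988 summits per 10 kb, against 0.369 over the merged spans of all protein-coding genes. These densities were not matched for span length, and overlapping spans were merged only for the latter. With so few genes, and genes chosen with earlier results of these data known, nothing particular to the pathway is read from these shares or densities.

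**Figure D1:**
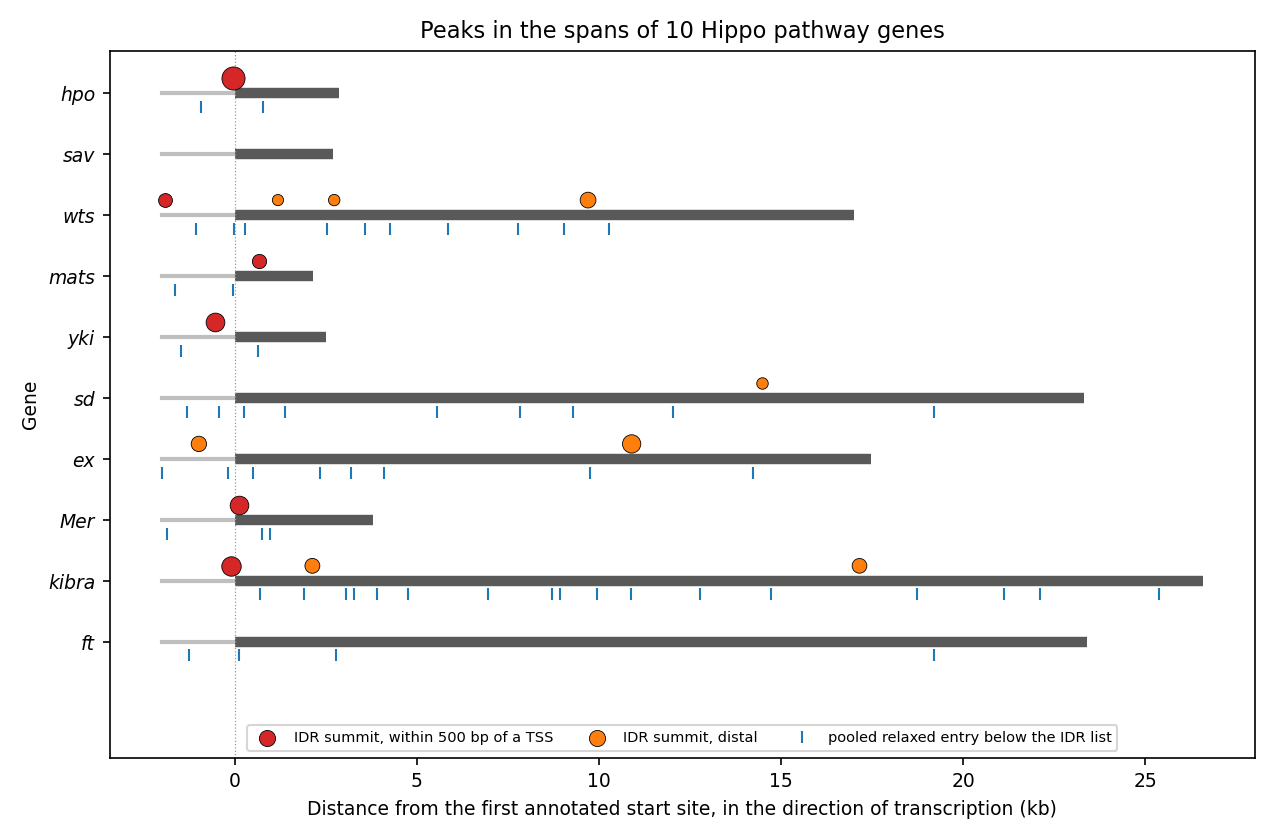
Map of the 10 spans, drawn from the first annotated start site (position 0) in the direction of transcription, in kb; dark bars are gene bodies and grey bars the 2000 bp upstream. Circles are reproducible summits, with area proportional to the authors' signal value (350.8 at hpo, 82.2 at the weakest wts peak), and blue ticks are pooled entries that rank below the reproducible list. The hpo, Mer and kibra circles sit at the start site, and the wts, ex, sd and kibra bodies carry summits farther in.

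At their own transcription start sites (TSS, within 500 bp), 4 of the 10 genes had a peak: hpo and mats of the kinase cassette, and the scaffold genes Mer and kibra. The share over all protein-coding genes was 19.5%. Among genes with a single annotated start site it was 14.9%, and of the 8 members of that kind 3 had such a peak. The mats summit is only just inside the limit, at 492 bp from the nearer of its 2 start sites. Just outside lay the summits at yki, 534 bp from the yki start site, and at sd, 685 bp from the nearest of 7. The labels give chromatin fragments of 200 to 800 bp, so distances of this size are near the resolution of the assay.

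Among the core kinase genes, hpo, wts and mats had peaks and sav had none. The hpo peak (chr2R:19496805-19497001) was the strongest of the 14, with a signal value of 350.8, the authors' own score, and its summit 37 bp upstream of the start site. Its rank was 331 of 4045 in the pooled list, 231 in replicate 2 (signal value 163.5) and 481 in replicate 3 (180.4), so it stood high in both libraries. Signal values are on each list's own scale, and only ranks are compared between lists. The hpo peak was 197 bp wide, where 12 of the 14 were 404 bp wide. Widths over the whole list are not set beside these, so nothing is read from them. The hpo summit also lies in the span of the neighbouring gene CG15120, whose start site is 859 bp away.

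At wts, which encodes the kinase that phosphorylates Yorkie, none of the 4 summits lay at its own promoter. The strongest (chr3R:30796716-30797119) had a signal value of 163.3 and lay in the second intron, 9701 bp downstream of the start site. It ranked 1555 in replicate 2 (62.8) and 1303 in replicate 3 (102.3). A pair of weaker peaks in the first intron, 2733 and 1189 bp downstream, had signal values of 85.8 and 82.2, close to the lowest of the whole list, 79.5. The former ranked 3046 in replicate 2 but 4885 in replicate 3, outside the 4045 strongest. The fourth (126.3) lay 1908 bp upstream of wts, just inside the span limit, and only 90 bp from the start site of the neighbouring gene cindr. Near the start site of wts itself the strongest pooled entry ranked 10279, with a signal value of 40.8.

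The mats peak (chr3R:22421615-22422018), at the gene for the activator of Warts, lay in the first intron with a signal value of 134.0. It ranked 2686 in replicate 2 (45.7) and 1793 in replicate 3 (84.7). In replicate 3 its summit was 502 bp from the start site, so in that library alone it was not counted as a promoter peak. The start site of the neighbouring gene Nop56 was 749 bp from the summit, and the span of Nop56 holds it too. The scaffold gene sav was empty: its span of 4696 bp had 0 entries in the pooled list of 30000, 1 in replicate 2 (rank 29396) and 2 in replicate 3 (best rank 17030).

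The effector genes had 1 peak each, and neither was a clear promoter peak of its own. In the yki span the summit (chr2R:24068942-24069114, signal value 231.5) lay 31 bp from the start site of Gpat4 and inside an exon of its 5' UTR, 534 bp upstream of yki. It ranked 936 in replicate 2 (83.6) and 702 in replicate 3 (144.8). Within 500 bp of the yki start site no list held an entry. The sd peak (chrX:15818634-15819037) had a signal value of 87.1, weaker than 88.8% of the list. It lay in an intron, 14466 bp from the first start site and 685 bp downstream of the nearest one. It ranked 3030 in replicate 3 (58.9) but 6836 in replicate 2 (26.5), so the libraries disagreed on whether it belongs among the strongest 4045.

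All 3 upstream scaffold genes carried peaks, and every one of these was among the 4045 strongest in both replicates. The Mer peak (chrX:19693186-19693589, signal value 228.2) had its summit in the first intron, 112 bp downstream of the start site, and ranked 754 in replicate 2 (93.0) and 818 in replicate 3 (133.5). No other protein-coding span held it. The kibra promoter peak (chr3R:14724169-14724572, signal value 248.5), 110 bp upstream of the start site, ranked 690 in replicate 2 (97.7) and 652 in replicate 3 (150.7). It was the second strongest of the 14, and the nearest start site of another protein-coding gene, CG7530, was 4707 bp away. Both remaining kibra peaks lay in its first intron, 2134 bp (145.9) and 17152 bp (142.4) downstream of the start site. Their ranks were 1511 and 1375 in replicate 2 and 1725 and 2251 in replicate 3. The farther one lay 59 bp from an annotated copy of the transposable element INE-1.

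At ex, a pair of distal peaks stood on either side of a start site without one. The upstream peak (chr2L:430043-430446, signal value 155.6) lay 982 bp before the start site and ranked 1513 in replicate 2 (63.8) and 1546 in replicate 3 (92.8). The other (chr2L:441923-442326, signal value 220.1) lay in the third intron, 10898 bp downstream, and was the strongest distal peak of the 10 genes. It ranked 529 in replicate 2 (113.5) and 1312 in replicate 3 (101.8). At the ex start site a pooled entry with a signal value of 63.5 ranked 5423, below the reproducible list, with ranks of 7324 and 5772 in the replicates.

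The cadherin gene ft had no reproducible peak, although its span measures 25393 bp. The pooled list held 4 entries there. The strongest, 1260 bp upstream of the start site, had a signal value of 68.4 and ranked 4912. Its rank was 3483 in replicate 3 and 26631 in replicate 2. An intronic entry 2796 bp downstream (66.8) ranked 3240 in replicate 3 and had no entry within 200 bp in replicate 2. Both of these entries were thus among the 4045 strongest of replicate 3 and weak or missing in replicate 2. A reproducible peak with a signal value of 83.6 lay 2446 bp upstream of ft, just outside the span limit.

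**Figure D2:**
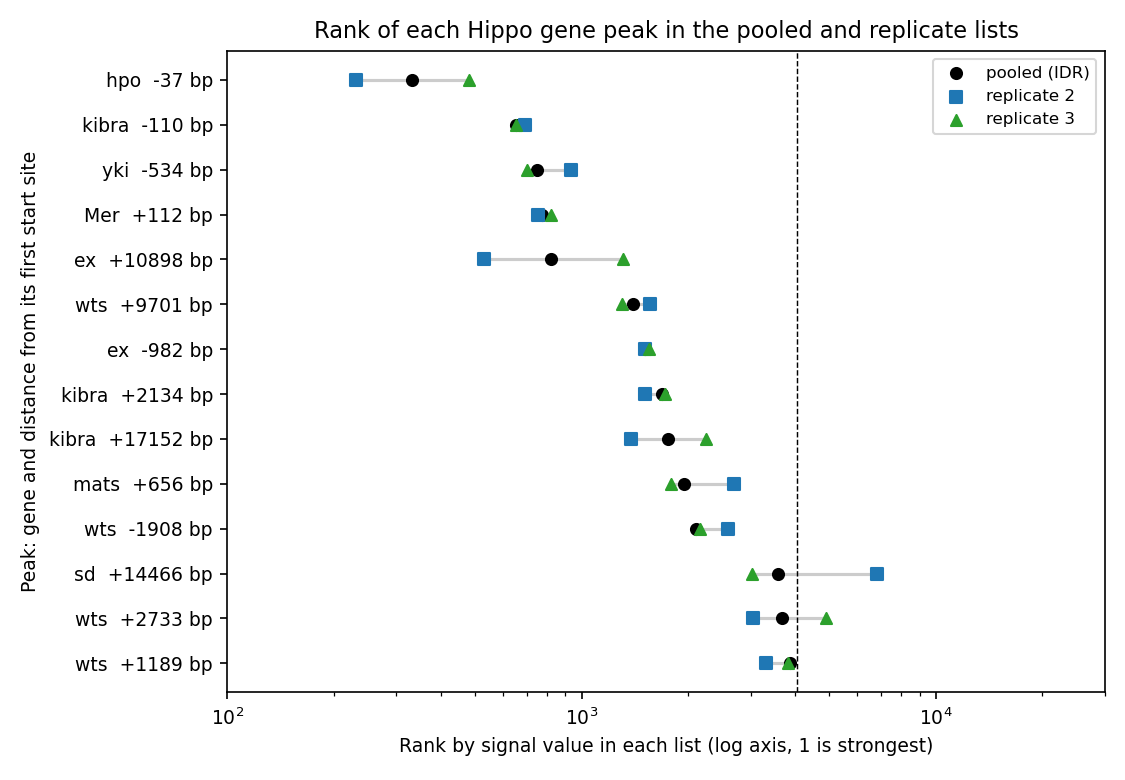
Rank of each of the 14 peaks in the pooled list (circles), replicate 2 (squares) and replicate 3 (triangles), on a log axis; labels give the gene and the distance from its first start site, and the dashed line marks rank 4045. The sd peak in replicate 2 (6836) and the wts peak 2733 bp downstream in replicate 3 (4885) lie beyond the line.

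Every one of the 14 peaks had an entry within 200 bp in both replicate lists. Each of those lists holds 30000 entries, and the share over all reproducible peaks was not counted, so nothing is read from this. Both libraries ranked 12 of the 14 peaks among their 4045 strongest (85.7%), where 77.5% of all reproducible peaks met that rule. Counting only such peaks, 7 of the 10 genes had a summit in their span, against 23.3% of all protein-coding genes; sd dropped out. Both libraries went into the pooled ranks, so these replicate ranks are not independent of how the peaks were chosen. The reproducible list equals the 4045 strongest pooled entries, so a single peak in it need not rank that high in each library. The sd peak, for example, ranked 6836 in replicate 2. Neither library was higher throughout: 6 of the 14 ranked better in replicate 3. The median signal value of the 14 was 150.7 (range 82.2 to 350.8), and 10 of them lay above the median of the whole list, 130.1.

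By position, 6 of the 14 summits were within 500 bp of some start site and 8 were distal. The distal share was 57.1%, against 44.7% of all reproducible peaks. Introns held 9 of the summits (64.3%, against 44.0% of the whole list), intergenic sequence 4 and a 5' UTR 1. No summit lay in a coding exon. Only the intron count has the share of the whole list beside it, so nothing is read from the other classes. Distal summits were found at 4 genes, wts, sd, ex and kibra, against 7.60% of all protein-coding genes, and all of these have long spans. Among genes with spans of 10000 to 30000 bp, 24.9% had a distal summit, and the 4 were among 5 members of this length. For genes with 2 or more summits (wts, ex and kibra, 3 of 10) the share over all genes was 7.29%, and among spans of 10000 to 30000 bp it was 19.7%. Of the 14 summits, 9 lay in no other protein-coding span. The same share was not taken over all reproducible summits, so nothing is read from this count.

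**Figure D3:**
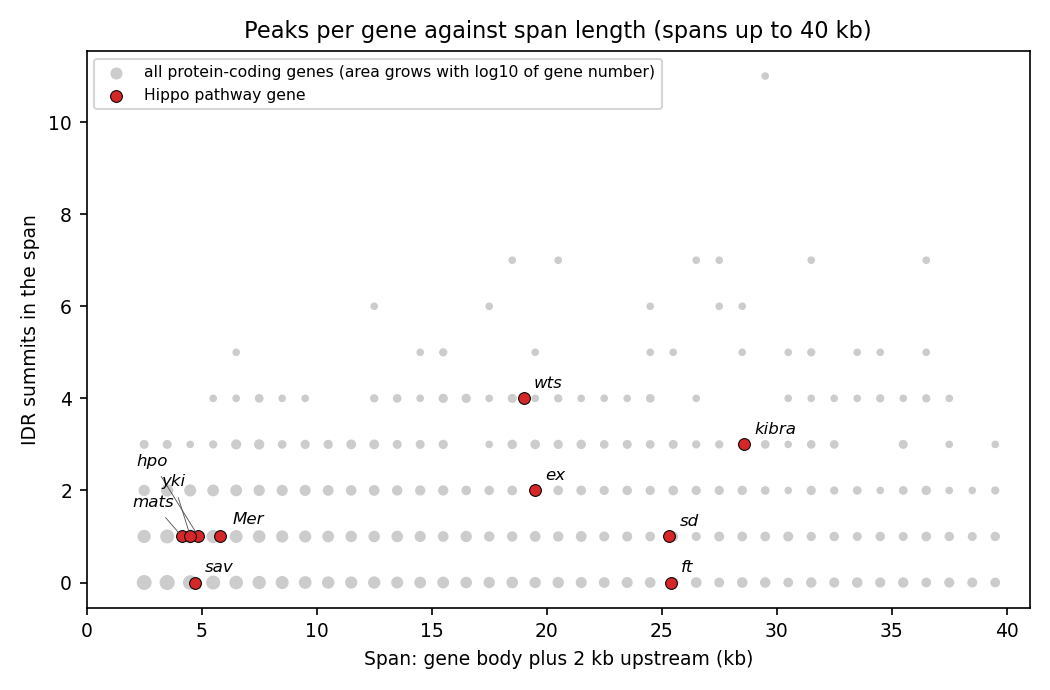
Number of reproducible summits in the span against span length in kb, for all protein-coding genes with spans of up to 40 kb (grey; area grows with the log10 of the number of genes) and for the 10 Hippo genes (red). Short members have 0 or 1 summit, and wts, with 4, stands highest of the 10.

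The relaxed lists show what lies under the threshold. They hold peaks and background by construction, so an entry there is weak evidence by itself. A pooled entry lay within 500 bp of an own start site at 8 of the 10 genes, all but sav and yki, against 53.4% of all protein-coding genes. Any pooled entry in the span was found at 9 of 10, all but sav, against 72.9%. In all the member spans held 71 pooled entries, 74 of replicate 2 and 71 of replicate 3. Of the pooled ones 57 ranked below the reproducible list, and 26 of these (45.6%) had an entry within 200 bp in both replicates, close to the 42.4% of all pooled entries below the list. Most of those below the list lay in kibra (17), wts (10), sd (9) and ex (8). The nearest to the threshold were an intronic entry of wts 4264 bp downstream (rank 4326, signal value 75.4) and one of kibra 8930 bp downstream (rank 4332, signal value 75.3). Each ranked among the 4045 strongest of replicate 2 (2281 and 2533) and lower in replicate 3 (8396 and 8463).

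**Figure D4:**
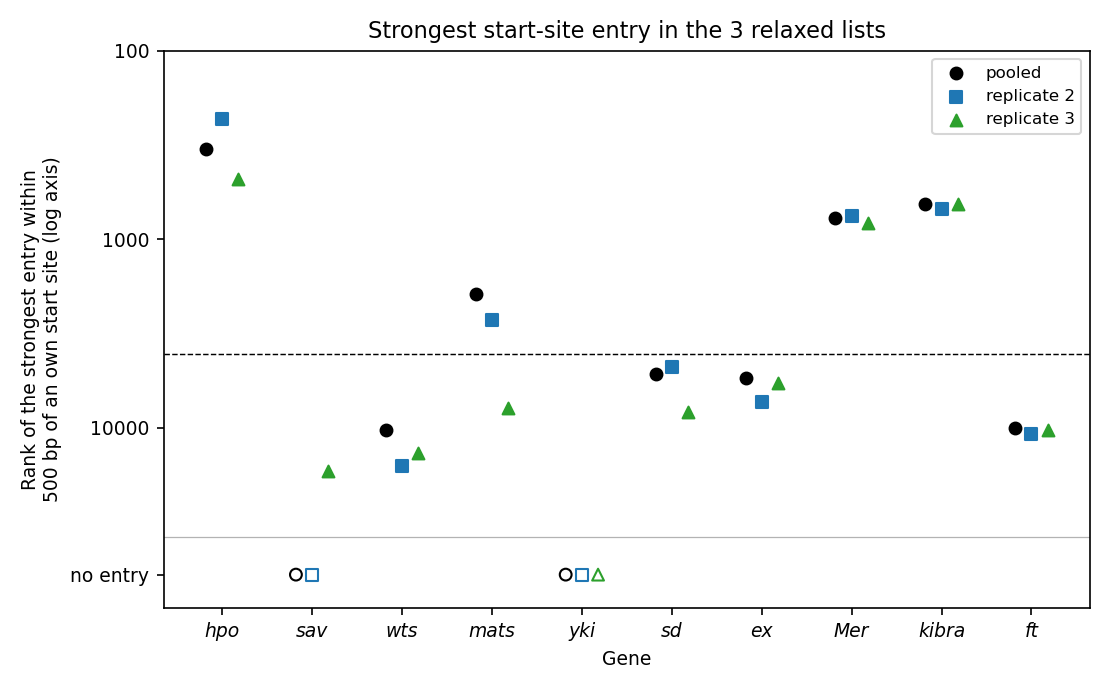
Rank of the strongest entry within 500 bp of an own start site in the pooled list (circles), replicate 2 (squares) and replicate 3 (triangles), on a log axis with strong entries at the top; open symbols mark lists with no entry and the dashed line rank 4045. Only hpo, Mer and kibra lie above the line in all 3 lists, mats does in 2 of them, and yki has no entry in any.

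Known sequence motifs were searched in the 200 bp around each summit, on both strands. The PAR bZIP sites TTACGTAA and TTATGTAA, the kind of site this family of factors binds, occurred in 0 of the 14 windows, where 1.95% of all reproducible windows and 1.31% of windows centred on protein-coding start sites held one. The CRE motif TGACGTCA occurred in 0 (0.321% of all reproducible windows). GGAATG, the site of Scalloped and other TEAD proteins, also occurred in 0 (7.17%). These shares are low and the windows few, so nothing is read from the counts of 0. The lack of GGAATG also says nothing on whether Scalloped, the pathway's own effector, binds there. The AP-1 motif TGACTCA occurred once, in the weakest wts peak shown above (1.93%). The DRE motif TATCGATA, bound by the factor DREF at many housekeeping promoters, was found at the promoter peaks of hpo and kibra (4.94% of all reproducible windows and 6.44% of start-site windows). GAGAG, the GAGA factor motif, lay in the upstream ex window and in the wts window next to cindr (23.3%). CAGGTA, the core of the site of the early embryonic factor Zelda, lay in the sd window and the distant kibra window (4.43%). In all 7 of the 14 windows held at least 1 of the 7 motifs, where 38.6% of all reproducible windows and 40.8% of start-site windows did. GC content ran from 29.0% in the weakest wts window to 54.5%, with a median of 41.5%, against 37.0% for all reproducible windows.

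The other genes of the pathway were described from a list of 38, of which 37 are protein-coding. Of the 37, 11 had a peak within 500 bp of an own start site and 21 had a peak in their span, where the shares over all protein-coding genes are 19.5% and 27.7%. With the microRNA gene mir-ban, 22 of the 38 had a peak in their span. Longer spans have more room for a summit, and shares among genes of like span length were not taken for this list. Its counts, in all and by role, are descriptions, and nothing particular to the pathway is read from them. In the branch of Fat, 3 of 8 genes had a peak in the span. They were app, a palmitoyltransferase gene (208.8, 197 bp from a start site), dco, a casein kinase gene (130.4, 305 bp), and ds, which encodes the cadherin that binds Fat (250.1, 574 bp). Like ft itself, dachs and fj, further genes of this branch, had none. Of 10 apical and junction regulators 5 had a peak, and 3 had one at an own start site. Those were aPKC, a polarity kinase gene (238.0, 85 bp), dlg1, a septate junction scaffold gene (227.5, 479 bp), and Pez, a phosphatase gene (103.7, 110 bp). The scaffold gene scrib (240.9, in an intron 10919 bp from a start site) and crb, the apical determinant gene (180.4, 991 bp), had peaks farther away.

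Of 7 inhibitors and kinases 5 had a peak in the span, 4 of them at a start site. These 4 were mts, the catalytic subunit gene of the phosphatase PP2A (193.2), Rassf, which encodes an antagonist of Hippo (102.0), Strip, a scaffold gene of the phosphatase complex acting on Hippo (94.5), and the kinase gene hppy (85.3). The kinase gene msn had 4 summits, the strongest (196.6) 1951 bp from a start site. Of 7 nuclear partners 4 had a peak. Tgi, which encodes a corepressor binding Yorkie and Scalloped, had one 9 bp from a start site (139.6), and the co-activator gene mask one at 52 bp (91.8). At hth (129.0) and Ncoa6 (118.0) the strongest lay farther away, at 49806 and 925 bp.

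Of 6 further known targets of Yorkie, 0 had a peak at an own start site. In the span 5 of them, mir-ban included, had peaks, against 27.7% of all protein-coding genes, among which mir-ban is not counted. The strongest was in an intron of Diap1, an inhibitor of apoptosis, with a signal value of 339.0 at 679 bp from the nearest start site. The microRNA gene mir-ban had one 1450 bp from its nearest annotated start site (234.7). The growth regulator gene Myc had one in an intron 8778 bp from its nearest start site (169.6). The cell cycle gene CycE had none. Among the members, kibra, also a target of Yorkie, did have a peak at its own start site, and ex, another target, did not. With 19.5% of all protein-coding genes having one, nothing is read from a count of 0 among 6 genes. Nothing is read from their span count either.

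**Figure D5:**
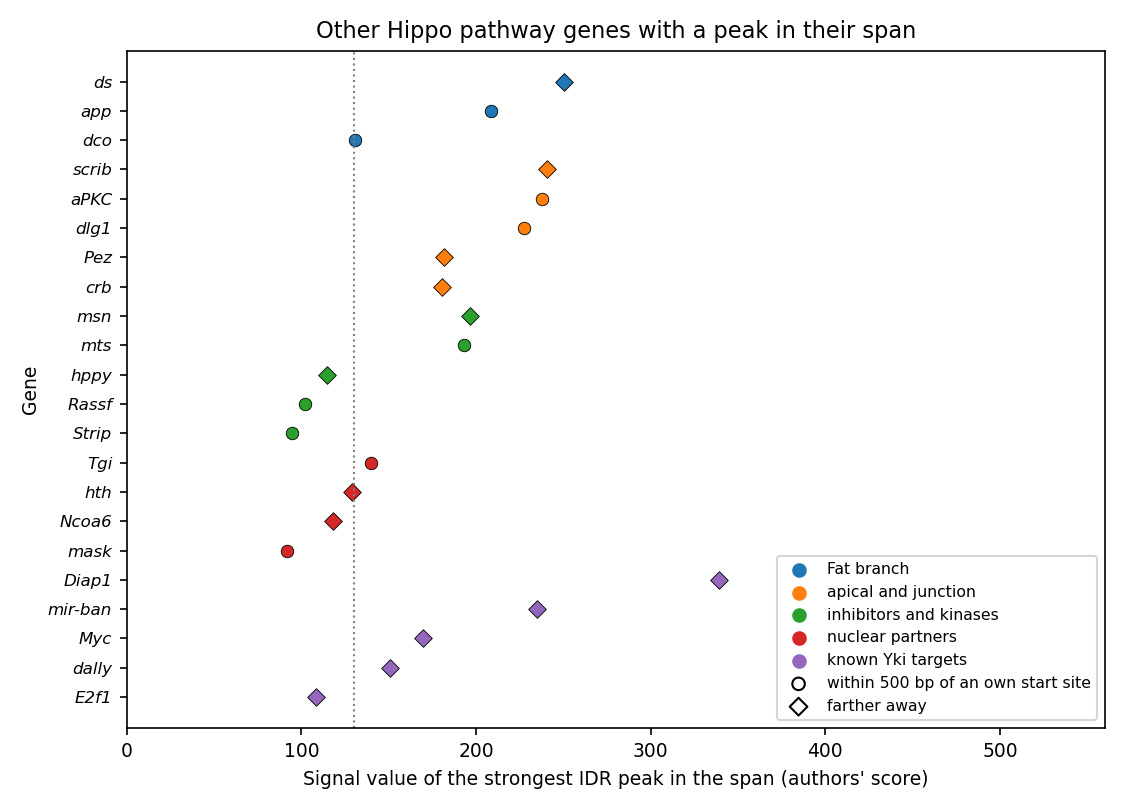
Signal value, the authors' score, of the strongest reproducible peak in the span of each further pathway gene that has one, coloured by role; circles are peaks within 500 bp of an own start site and diamonds lie farther away. The dotted line marks the median of the whole list, 130.1; Diap1 (339.0) lies farthest right, and all 5 targets of Yorkie are diamonds.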

How the data were processed

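Peaks of 2 chromatin immunoprecipitation libraries were analysed. Per the text that goes with the libraries, the authors called relaxed lists of peaks and background for the replicates one by one and for their pooled alignments, against 1 control alignment. IDR, which compares ranks between replicates, then gave their optimal list, called the reproducible list here; it equals the strongest 4045 pooled entries by signal value. For the aligner, the caller, versions and the IDR threshold: not given in the sources used here. Each deposited peak has a signal value, a score without a stated unit, and a −log10 q-value. In the reproducible list that value is 3.91 throughout, so it ranked nothing. Each relaxed list holds 30000 entries whatever its depth, and depth is unknown. Only the dm6 lists were used, and dm3 lists were not used here.

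From these, summits were placed in gene spans (body plus 2000 bp upstream) and within 500 bp of start sites of the Ensembl release 115 annotation, without transposable elements. Entries were matched across lists when summits lay within 200 bp. Python 3.11.15, pandas 2.3.3, NumPy 2.4.6 and Matplotlib 3.10.9 were used, and the counting code was tested on simulated data. No statistical test was made: the design has 1 group, so counts stand beside those over all protein-coding genes. The members, the wider list and the motifs were chosen with earlier results of these data known. Named genes are all members and, of the wider list, those with a peak at an own start site plus up to 3 more per role with the strongest peak; dachs, fj and CycE were named after their values were seen. In that list 2 symbols were matched through their current names. Alternatives were other lists, windows, spans and match distances.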

Additional observations from a re-analysis of the deposited data

How the results depend on the processing

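The statement that 8 of the 10 genes have a peak in their span ranged from 6 to 9 over the alternatives run for it, and the 14 summits matched in both replicates became 13 with a match distance of 100 bp. Using 1 replicate list at a time, promoter peaks were counted at 3 to 4 genes, span peaks at 7 to 9, with 15 summits (9 to 10 distal), and at 11 to 12 and 23 of the wider genes. The promoter count of 4 rose to 7 with a TSS window of 1000 bp (yki, sd and ex added), and that of the wider list from 11 to 18. The share over all protein-coding genes was not taken at 1000 bp, and the yki summit lies 31 bp from the start site of Gpat4. Such shares are not set beside the other alternative counts either, except for span peaks found in both replicates, given above. Nothing particular to the pathway is read from these alternative counts. The summit count of 14 rose to 24 among the 8000 strongest pooled entries and fell to 9 in the gene body alone. The 8 distal summits became 5 in the 2022 strongest peaks and 16 among the 8000. Promoter peaks of the wider list became 6 and 18 under these settings, and its span count of 22 became 14 in the gene body alone. The median signal value of 150.7 was 191.7 in the 2022 strongest (median of that list 196.1), 86.5 among the 8000 (80.2), 159.4 for peaks found in both replicates (152.0), 142.4 in gene bodies (130.1) and 144.1 with 5000 bp upstream. On the replicates' own scales it was 63.8 to 87.0. Windows with a motif fell from 7 to 3 in 100 bp windows and were 10 with CGATA counted too. Shares over all reproducible windows or start-site windows are not set beside these counts, so nothing is read from them. The settings differ in the number of peaks, in the window or span, or in the library used. The cause of these moves was not tested. No paired analysis was possible because both libraries belong to 1 group.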

Other observations

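These values were looked at after the data were seen and are descriptions. The longest word shared by the windows of 2 different members was TACCTGTTACAT, 12 bases, in the sd intron and the distant kibra intron. It contains the letters of the Zelda core (as TACCTG), so these are the same matches as those counted for CAGGTA. It occurred in 4 of the 4045 reproducible windows (0.0989%), in 4 of 19252 start-site windows (0.0208%) and 156 times in the genome over both strands. The kibra copy lies near an annotated INE-1 element, and whether the word comes from repeated sequence was not tested.

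The pentamer CGATA, which is part of the DRE motif, lay in 6 of the 14 windows: those of hpo, Mer, the intronic wts peak 9701 bp downstream, and all 3 kibra peaks. Of all reproducible windows 32.4% held it, and of start-site windows 37.0%. In the hpo and the kibra promoter windows the DRE motif itself holds it. A further reproducible peak lay 3683 bp upstream of ex (signal value 118.1, rank 2326), beyond the span limit, with ex the gene of the nearest start site.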
